A study of Mus musculus with 12 samples.

Results

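The genes described here code for proteins of nuclear speckles and for SR splicing factors, 40 of the 54446 genes counted in the YTHDF2 RIP-seq libraries. They were chosen by symbol with earlier results of these same libraries known, so their counts and median values are a description and not a test. Each of the 40 symbols matched 1 identifier in the count files, and each of the 40 passed the filter on low counts in every comparison. YTHDF2 was immunoprecipitated from CD11b+ myeloid cells of MC38 tumors, a mouse colon carcinoma line grown in mice, and the RNA in the precipitate (IP) was sequenced beside the RNA of the lysate (Input). The tumors were either not irradiated (Ctrl) or given a single dose of 20 Gy and collected 3 days later (IR). The methods name a sham treatment for mice that were not irradiated. The labels give the genotype as WT for all 12 libraries, and the methods describe these mice as carrying a floxed Ythdf2 gene and intact for YTHDF2. Each of the 4 groups, Ctrl Input, Ctrl IP, IR Input and IR IP, held 3 replicates, each made from a pool of mice and called technical by the methods, so p-values measure the spread between pools, which may be technical. No library from a control antibody was analysed here.

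Nuclear speckles are bodies between the chromosomes that store and modify pre-mRNA splicing factors. SR proteins carry a stretch of alternating arginine and serine residues, the RS domain, bind exonic sequences and recruit the spliceosome to nearby splice sites. Kinases of the CLK family phosphorylate the RS domain and release SR proteins from speckles. Many SR protein genes limit their own output through alternative exons or retained introns that send the transcript to nonsense-mediated decay or keep it in the nucleus. YTHDF2 is a cytoplasmic reader of N6-methyladenosine (m6A), the commonest internal mark of mRNA, and recruits a deadenylase that shortens the life of the transcripts it binds. The Input therefore gave the abundance of each splicing factor transcript, and the ratio of IP to Input gave how strongly that transcript was represented in the YTHDF2 precipitate.

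The libraries held between 27852948 and 42382532 reads on genes. Of the uniquely placed reads, those off annotated genes made up 26.9 to 27.0% in Ctrl Input, 24.6 to 24.8% in IR Input, 41.8 to 42.7% in Ctrl IP and 49.4 to 54.1% in IR IP. The off-gene share differed between Ctrl IP and IR IP, as did the IP levels of many of the 40 genes, and its part in those differences was not tested. CPM levels are scaled here over all 12 libraries, whereas each log2 fold change was fitted with scaling over the libraries of its own comparison. All 12 myeloid markers were detected, among them Itgam, which codes for CD11b. The summed level of these markers was 10470 to 11300 CPM, read counts scaled to the size of the library, in Ctrl Input and 13960 to 14690 CPM in IR Input. In mean CPM, the largest rises were those of S100a9 (3516 to 4902), S100a8 (2100 to 2902) and Itgam (943 to 1717). Ptprc (341 to 322) and Csf1r (213 to 208) stood lower in IR Input. Of the defining markers of other cells, Krt19 was at 0 in every library, and the 5 T cell markers together did not exceed 2.84 CPM in any library. Cdh1, from the tumor epithelial list, stood at a mean of 119 CPM in Ctrl Input, and Vwf, from the endothelial list, at 51.2 CPM. In these bulk samples, fewer cells of a type and less RNA per cell cannot be told apart. Ythdf2 itself had 57.6 to 58.5 CPM in Ctrl Input and 47.7 to 55.3 CPM in IR Input, a log2 fold change of -0.25 ± 0.0524 (SE, adjusted p = 0.000297, edgeR's quasi-likelihood test).

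The m6A mark is laid on a short motif, of which GGACT, with U for T in the RNA, is a frequent form, often near the stop codon or in long internal exons. This motif was searched on the sense strand of 1 mRNA per gene, and 38 of the 40 splicing factor mRNAs held at least 1 copy, against 91.2% of all coding mRNAs tested. Copies whose printed stretch crossed a splice junction or ran past the end of the mRNA were left out. Of the rest, the copy nearest to the stop codon is given here for Pnisr, Son, Rbm25 and Luc7l3, the 4 members with the highest IP to Input ratios in Ctrl, for Prpf4b, whose ratio moved the opposite way with IR, and for Ddx5 and Srsf2, which had low ratios. The capitals mark the motif, the letters are from the GENCODE transcripts of the mm10 genome, and m6A itself was not measured in these libraries.
Son, coding exon, chr16:91659885-91659909, plus strand: agaagaaaagGGACTcttcattacg
Pnisr, 3′ UTR, chr4:21875387-21875411, plus strand: ttgtgcccatGGACTtttgtcaaat
Rbm25, 3′ UTR, chr12:83681639-83681663, plus strand: acccttcaaaGGACTttgaattttc
Luc7l3, 3′ UTR, chr11:94292636-94292660, minus strand: ggcacatgttGGACTactttgtttt
Prpf4b, coding exon, chr13:34901493-34901517, plus strand: accagctaaaGGACTtgttggacca
Ddx5, coding exon, chr11:106781990-106782014, minus strand: aatccaacagGGACTtaccagaacg
Srsf2, 5′ UTR, chr11:116853006-116853030, minus strand: ctacccacgaGGACTgtagctaccg
The copy in Rbm25 began 57 bases after the last sense codon and that in Luc7l3 189 bases after it, while the copy given for Son lay before it, at -1803 bases. Whether a copy that was left out lay nearer was not examined. The Son mRNA held 15 copies, the Prpf4b mRNA 4, the Ddx5 mRNA 3 and the Srsf2 mRNA 1. The motif was therefore present in transcripts at both ends of the range of ratios. In mm10 the gene of Son lies at chr16:91647506-91679221, that of Pnisr at chr4:21847583-21876475, that of Rbm25 at chr12:83631236-83683123 and that of Luc7l3 at chr11:94287890-94321988. The gene of Prpf4b lies at chr13:34875302-34906064, that of Ddx5 at chr11:106780355-106789185 and that of Srsf2 at chr11:116849901-116853094.

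The 40 genes were abundant in the Input and took a larger share of the reads in the IP. Together they held 1.43 to 1.50% of the reads on genes in Ctrl Input and 1.54 to 1.60% in IR Input. Their share was 3.93 to 4.07% in Ctrl IP and 2.89 to 2.95% in IR IP, so the pools of these 4 groups did not overlap. Per kb of merged exon, the highest mean level in Ctrl Input belonged to Rbm39, with 132 CPM per kb, ahead of Prpf38b with 125 CPM per kb. The lowest belonged to Snrnp48, with 9.002 CPM per kb, followed by Rbm6 with 11.0 CPM per kb. In Ctrl IP the highest mean levels per kb were those of Luc7l3, with 520.1 CPM per kb, and Son, with 474 CPM per kb.

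To ask which splicing factor transcripts were enriched in the YTHDF2 precipitate of tumors that were not irradiated, the IP was compared with the Input in Ctrl. Without a control antibody library, RNA bound by YTHDF2 and background of the precipitate cannot be told apart. The transcripts of large speckle proteins were several-fold higher in the IP, and those of most classical SR proteins were lower. Of the 40 genes, 22 were higher and 14 lower, beside 34.1% higher and 34.6% lower among all genes tested. Their log2 fold changes ran from -1.65 for Ddx5 to 2.61 for Pnisr, with a median of 0.47 beside 0.018 over all genes. The highest ratios were those of Pnisr (2.61 ± 0.0388, SE, adjusted p = 1.08e-18), Son (2.57 ± 0.0276, adjusted p = 2.8e-20), Rbm25 (2.47 ± 0.0439), Luc7l3 (2.42 ± 0.0394), Srsf11 (2.40 ± 0.0445) and Thoc2 (2.17 ± 0.0386). The lowest, after Ddx5 (-1.65 ± 0.0399, adjusted p = 3.05e-16), were those of Srsf2, Srsf3, Srsf6 and Srsf9, between -1.39 and -1.13. U2af1, Rbm5, Clk1 and Clk2 did not pass the test.

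The same comparison in IR asked which of these transcripts were enriched in the precipitate after irradiation, with the same limit. The ratios of the speckle protein transcripts were lower than in Ctrl but for the most part still above the Input, and those of 8 of the 12 SR and SR-like genes were below it, whereas Srsf11 (2.47-fold), Tra2b (1.81-fold) and Srsf10 (1.23-fold) stayed above. Here 20 of the 40 genes were higher and 19 lower, beside 32.1% and 30.4% of all genes, and Srsf4 did not pass (0.11, adjusted p = 0.0641). Srsf4 did pass, as higher, without any one of the 3 IR IP libraries (0.16 to 0.21) and under 5 other alternatives (0.16 to 0.26). The range was -1.51 for Ddx5 to 1.76 for Son, with a median of 0.12 beside 0.10 over all genes. Without IR IP replicate 1, 2 or 3 the median was 0.20, 0.21 or 0.18, beside 0.017, 0.024 or 0.036 over all genes. It was 0.25 beside 0.043 with protein-coding nuclear genes only, and 0.27 beside 0.25 with library size alone. Luc7l, Clk4 and Prpf4b were called on opposite sides of 0 in the Ctrl and IR comparisons. The calls for Clk4 were lost in Ctrl without Ctrl Input replicate 2 (0.13, adjusted p = 0.0707), and in IR without IR IP replicate 1 (-0.16, adjusted p = 0.116) or replicate 2 (-0.29, adjusted p = 0.125).

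The change of the ratio with IR was tested as the interaction over all 12 libraries. It asks whether the level in the precipitate shifted beyond the change in the Input, and does not measure binding itself. The ratio fell for 30 of the 40 genes and rose for 1, Prpf4b, beside 13.9% lower and 6.28% higher among all genes. All 40 are protein-coding, and of the 14494 nuclear protein-coding genes tested 2589 were lower and 1047 higher. Neither background was matched to the 40 by level. In the same comparison 8 of the 12 myeloid markers fell and 1 rose, with a median of -0.40, among them Itgam (-0.58), Fcgr3 (-0.65) and S100a9 (-0.65). The log2 changes ran from -1.40 for Rbm25 to 1.21 for Prpf4b, with a median of -0.43 beside -0.083 over all genes. Counted by pool, with IP and Input matched by replicate number, each of the 3 IR ratios lay below each of the 3 Ctrl ratios for 33 genes, beside 21.5% of all genes, and above them for Prpf4b and Ddx5, beside 13.9% of all genes. The ratios of Srsf1, Srsf2, Srsf3, Srsf9 and Tra2a overlapped between Ctrl and IR. Scaling by library size alone moved the median of all genes by 0.31, and 2862 genes were then higher and 877 lower in place of 1301 and 2881. Under that scaling 16 of the 40 genes were lower and 5 higher, and the values of Sf3b1 (0.074) and Ddx39b (0.026) turned positive without passing the test. Without IR IP replicate 3, 4 genes were higher, with Srsf1 (0.31), Srsf2 (0.34) and Ddx5 (0.23) beside Prpf4b. Of the 30 genes that fell, 16 were called under all 19 alternatives, and 24 under the 18 other than library size alone. The other 6, Clk2, Clk4, Ddx39b, Rsrc2, Sf3b1 and Srsf7, lost the call without Ctrl IP replicate 3, and some of them without other libraries. The distance between the median of the 40 genes and that of all genes was -0.34 under both scalings. Scaling shifts all genes of a comparison nearly alike, so this distance could not have moved with it. That distance was -0.27 with 10 counts in every library and -0.55 without the filter on low counts, where the genes tested differed.

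**Figure D1:**
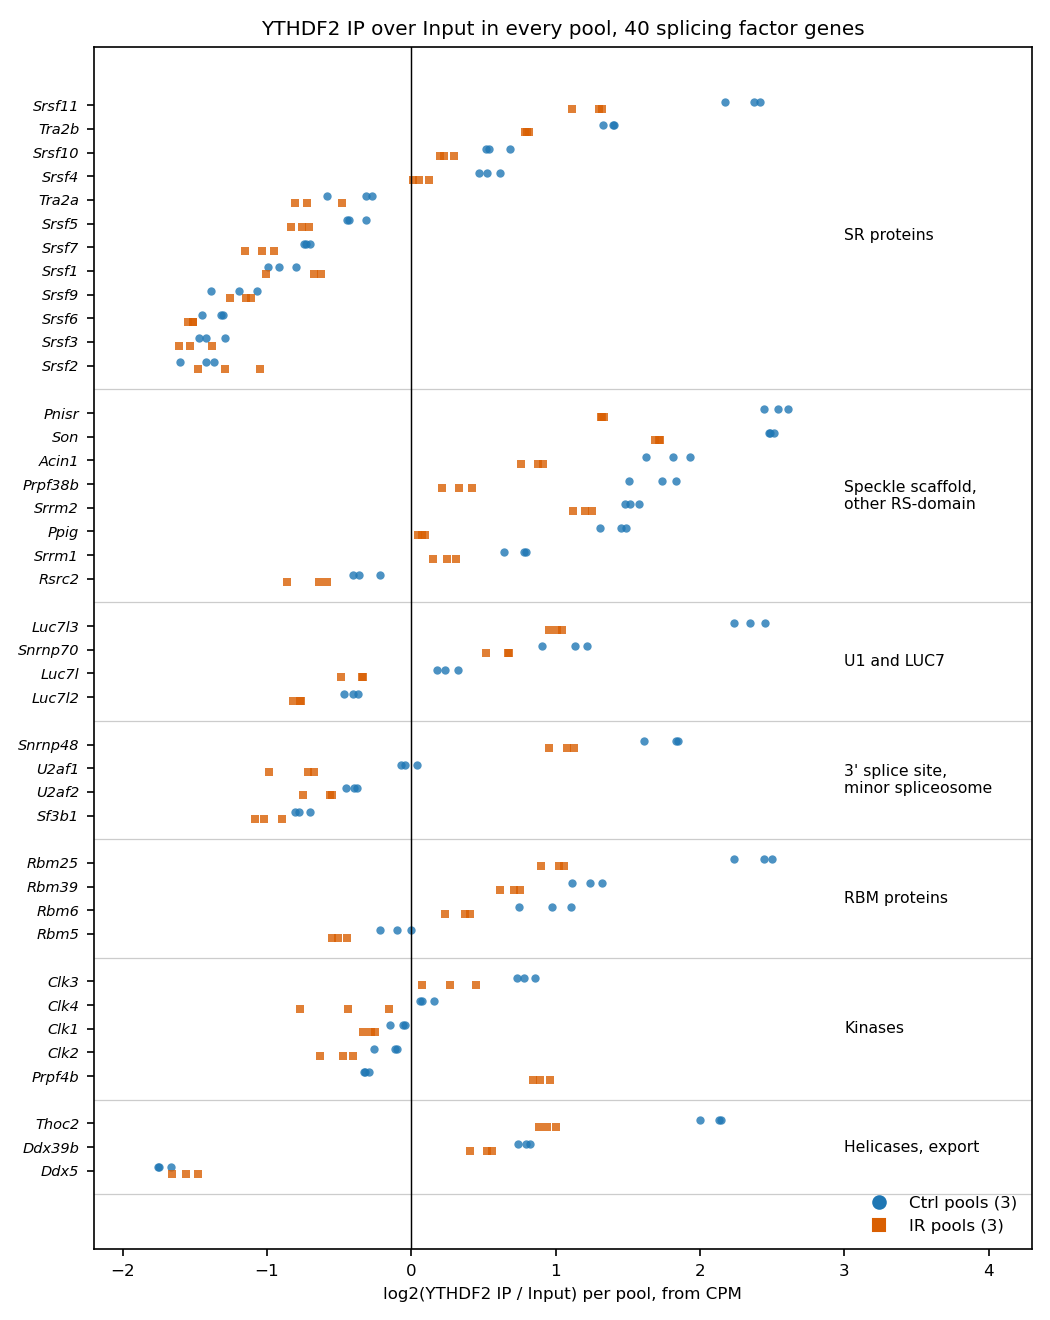
Each row is a gene, and each point the log2 ratio of YTHDF2 IP to Input, from CPM scaled over all 12 libraries, in 1 pool (circles, 3 Ctrl pools; squares, 3 IR pools). For 33 genes the 3 squares lie left of the 3 circles, and for Prpf4b they lie to the right, between 0.85 and 0.96 against -0.33 to -0.29.

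The abundance of these transcripts in the whole lysate was compared between IR and Ctrl in the Input. The changes were small, with 3 of 4 RBM, 4 of 5 kinase and 6 of 8 speckle protein transcripts slightly higher after IR and 7 of 12 SR protein transcripts lower. Of the 40 genes, 20 were higher and 12 lower, beside 21.0% and 23.9% of all genes. The range was -0.44 for Srsf2 to 0.47 for Thoc2, with a median of 0.094 beside 0.0072 over all genes. With all 12 libraries in one fit, which changed the scaling, the genes tested and the estimate of the spread together, the median of all genes moved by 0.079, and 2621 genes were higher and 1500 lower in place of 3557 and 4047. In that fit 6 of the 40 were lower, and Srsf3, Srsf9, Tra2b, U2af1, U2af2 and Ddx5 were among the calls that some alternative did not keep. The summed level of the myeloid markers moved with this comparison, and 8 of the 12 were higher in IR Input and 2 lower. Their part in these changes was not tested.

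In the IP, IR was compared with Ctrl to see how the transcripts in the precipitate moved. Here 25 of the 40 genes were lower and 1 higher, beside 9.85% lower and 6.12% higher among all genes. The range was -1.09 for Ppig to 1.02 for Prpf4b, with a median of -0.32 beside 0.062 over all genes. Library size alone moved the median of all genes by 0.21 and gave 2665 genes higher and 828 lower in place of 1179 and 1896. Of the 40 genes, 19 were then lower and 5 higher, and Sf3b1, at -0.01 with the main scaling, stood at 0.19 and passed (adjusted p = 0.0391). The comparisons in the Input, in the IP and of the ratio share their libraries, so their values are given side by side and were not correlated.

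**Figure D2:**
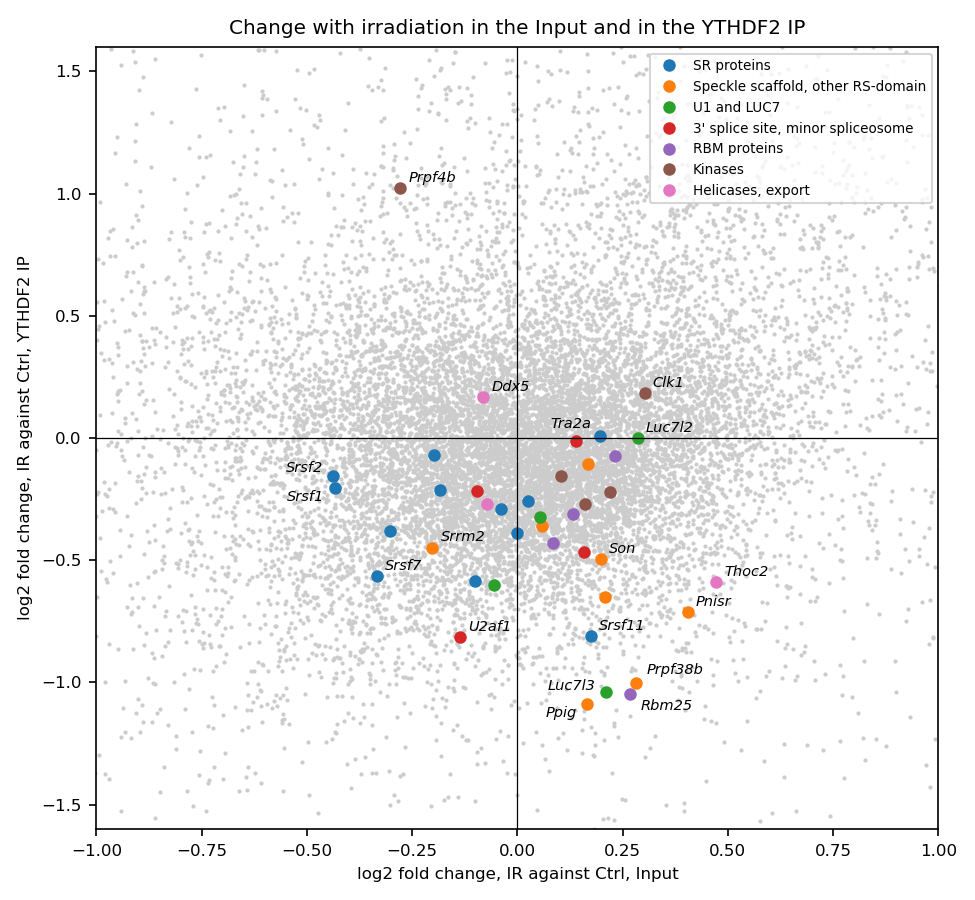
The log2 fold change of IR against Ctrl in the Input (horizontal) is plotted against that in the YTHDF2 IP (vertical), with the 40 genes coloured by role and all other genes tested in both in grey; genes beyond the axes are not drawn. Most coloured points lie below 0 on the vertical axis, down to -1.09 for Ppig, while their horizontal values stay between -0.44 and 0.47, and Prpf4b stands at 1.02 on the vertical axis.

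The speckle scaffold and other RS-domain proteins held Pnisr and Son, the members with the highest ratios in Ctrl. Rbm25, Luc7l3, Srsf11 and Thoc2, which belong to other groups, came next, ahead of the rest of this group. Son is a very large protein that, with Srrm2, forms the core of the speckle. Its level was 1260.1, 1242 and 1264 CPM in Ctrl Input and 1536, 1512 and 1515 CPM in IR Input. In the IP it was 7059, 7076 and 7053 CPM in Ctrl and 5046, 4879 and 5012 CPM in IR. The 4 groups did not overlap, and Son was higher in IR Input and lower in IR IP. The IP of Son was 5.93-fold its Input in Ctrl and 3.40-fold in IR, and the change of the log2 ratio was -0.78 ± 0.0316 (adjusted p = 1.18e-12).

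Pnisr codes for an RS-rich speckle protein. It had 478, 444 and 445 CPM in Ctrl Input against 655, 619.7 and 635 CPM in IR Input. It had 2603, 2582 and 2710.4 CPM in Ctrl IP against 1630.4, 1551 and 1602 CPM in IR IP. The transcript thus rose in the Input (0.40 ± 0.0337, adjusted p = 1.5e-10) and fell in the IP (-0.71 ± 0.0337, adjusted p = 5.3e-10), with no overlap between pools in either.

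Ppig is a nuclear cyclophilin, a prolyl isomerase with an RS-rich tail. It had 682, 634 and 651 CPM in Ctrl Input and 793, 759 and 779 CPM in IR Input. Its IP levels were 1684, 1738 and 1822 CPM in Ctrl and 819, 811 and 819.7 CPM in IR. The IR IP pools thus stood near the IR Input pools. The ratio fell from 2.81-fold in Ctrl to 1.09-fold in IR, and the call above the Input in IR was lost without the filter on low counts (-0.012, adjusted p = 0.868), with all 12 libraries in one fit (adjusted p = 0.0879), without IR Input replicate 2 (0.0933, adjusted p = 0.0807) and without IR Input replicate 3 (0.117, adjusted p = 0.0583). The change of the log2 ratio, -1.34 ± 0.051 (adjusted p = 4.96e-13), was called under every alternative run.

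The other 5 genes of this group moved the same way in the change of the ratio, which was called lower for all 8. Prpf38b, a relative of the spliceosomal protein Prpf38a, changed by -1.37, and Acin1, a subunit of a complex on spliced exon junctions, by -0.95. Srrm1 and Srrm2, the serine and arginine repetitive matrix proteins, changed by -0.51 and -0.33. Rsrc2 changed by -0.36 and was the only member of the group below its Input in Ctrl (-0.25). In the Input, 6 of the 8 were higher after IR, Srrm1 did not pass (0.058, adjusted p = 0.126) and Srrm2 fell by 0.20. The 8 genes together summed to 5322 to 5671 CPM in Ctrl Input, 6287 to 6635 CPM in IR Input, 19820 to 20810 CPM in Ctrl IP and 12730 to 13170 CPM in IR IP.

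The RNA-binding motif proteins had ratios in the same range. Rbm25 binds exonic sequences and steers splice site choice. It had 1304, 1173 and 1206 CPM in Ctrl Input and 1624, 1492 and 1566 CPM in IR Input. Its IP levels were 6150.2, 6389 and 6824 CPM in Ctrl and 3030.4, 3034 and 3256 CPM in IR. The IP of IR stood at less than any pool of the Ctrl IP while the Input moved up, and the change of the log2 ratio was -1.40 ± 0.061 (adjusted p = 3.05e-12), the lowest of the 40 genes.

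Rbm39 is a splicing factor related to U2af2 and the target of sulfonamide degraders. It had 961, 908 and 884 CPM in Ctrl Input and 1093, 1043 and 1049 CPM in IR Input. In the IP it had 2076, 2142 and 2212 CPM in Ctrl and 1674, 1711 and 1765 CPM in IR. The pools separated in both, and the ratio changed by -0.53 ± 0.0503 (adjusted p = 1.96e-07). Rbm6 stood above its Input in Ctrl (1.02) and in IR (0.39), while Rbm5, a tumor suppressor that regulates apoptosis genes, stood at -0.03 and -0.45, and both changed toward lower ratios (-0.60 and -0.39). In the Input, 3 of the 4 genes were higher after IR, and Rbm6 did not pass (0.084, adjusted p = 0.104).

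Among the U1 and LUC7-like proteins, which recognise the 5′ splice site, the members differed in their ratios. Luc7l3 was 5.35-fold above its Input in Ctrl and 2.08-fold in IR, and its ratio changed by -1.34 ± 0.0511 (adjusted p = 4.96e-13). Snrnp70, the U1 snRNP 70 kDa protein, was at 2.23-fold and 1.60-fold. Luc7l crossed from above the Input (0.32) to below it (-0.33), and Luc7l2 was below in both (-0.34 and -0.73). The ratio fell for all 4. In the Input, Luc7l2 (0.29) and Luc7l3 (0.21) rose after IR, and the IP levels of Luc7l2 overlapped (377 to 391 CPM in Ctrl, 374 to 395 CPM in IR).

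The 3′ splice site is recognised by the U2AF pair and the branch point by Sf3b1, the scaffold of the U2 snRNP, while Snrnp48 belongs to the minor spliceosome. Snrnp48, the least abundant member per kb, had 94.9, 88.6 and 90.1 CPM in Ctrl Input and 112, 103 and 107 CPM in IR Input. In the IP it had 289.9, 317 and 324 CPM in Ctrl and 217, 225 and 227 CPM in IR. It was the only one of these 4 genes above its Input, 3.58-fold in Ctrl and 2.15-fold in IR, and its ratio changed by -0.71 ± 0.0746 (adjusted p = 7.08e-07).

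U2af1 stood level with its Input in Ctrl (0.05, adjusted p = 0.479) and below it in IR (-0.74). Its IP levels were 62.6 to 66.1 CPM in Ctrl and 32.6 to 39.9 CPM in IR. Its Input levels overlapped, with a log2 fold change of -0.14 (adjusted p = 0.0188, edgeR's quasi-likelihood test). That Input call was lost with all 12 libraries in one fit, and also in at least 1 fit that left out a single library. U2af2 (-0.33 and -0.56) and Sf3b1 (-0.68 and -0.94) were below their Input in both, and the change was called for Sf3b1 (-0.24, positive under library size alone as given above) and not for U2af2 (-0.21, adjusted p = 0.0609).

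The SR proteins and the SR-like activators Tra2a and Tra2b split by their ratios. In Ctrl, 4 of the 12 were above their Input, namely Srsf11 (2.40), Tra2b (1.45), Srsf10 (0.66) and Srsf4 (0.61), and the other 8 were below. Srsf2, also known as SC35, had 158, 162 and 171 CPM in Ctrl Input and 121, 129.6 and 132 CPM in IR Input. Its IP levels were 61.1, 53.5 and 63.6 CPM in Ctrl and 58.5, 53.0 and 47.4 CPM in IR. The Input pools did not overlap and fell by 0.44 on the log2 scale (SE 0.0391, adjusted p = 5.68e-10), while the IP pools overlapped (-0.16, adjusted p = 0.376).

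The ratio fell with IR for 6 of the 12, Srsf4, Srsf5, Srsf7, Srsf10, Srsf11 and Tra2b, with changes from -1.07 for Srsf11 to -0.32 for Srsf7. The others, Srsf1, Srsf2, Srsf3, Srsf6, Srsf9 and Tra2a, did not pass, with values from -0.28 to 0.19. Scaled by library size alone, the ratio rose for 3 of the 12, Srsf1, Srsf2 and Srsf9, and fell for 2. Srsf1, the founding member of the family, had lower Input levels after IR (129 to 136 CPM against 166 to 177 CPM), as did Srsf6 and Srsf7. In the Input 7 of the 12 were lower and 2, Srsf11 (0.17) and Tra2a (0.20), higher. The 12 genes summed to 2256 to 2305 CPM in Ctrl Input and 2284 to 2348 CPM in IR Input, and to 4478 to 4824 CPM in Ctrl IP and 2836 to 3075 CPM in IR IP. Srsf11 alone held 2804 to 3126 CPM of the Ctrl IP and 1549 to 1800.4 CPM of the IR IP.

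Of the 5 kinases, Prpf4b was the member that moved the opposite way. It phosphorylates tri-snRNP proteins during assembly of the spliceosome. Prpf4b had 129, 127 and 128 CPM in Ctrl Input and 114, 109 and 111 CPM in IR Input. In the IP it had 103, 103 and 102 CPM in Ctrl and 211, 213 and 199 CPM in IR. The Input thus fell after IR (-0.28 ± 0.0373, adjusted p = 6.92e-07) while the IP rose 2.03-fold (1.02 ± 0.0646, adjusted p = 1.2e-08), with no overlap between pools in either. Its ratio went from below the Input in Ctrl (-0.24, adjusted p = 0.000259) to 1.94-fold above it in IR, a change of 1.21 ± 0.0694 (adjusted p = 1.7e-10). This direction was called under each of the 19 alternatives of the interaction test.

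Clk1, Clk2, Clk3 and Clk4, which phosphorylate the RS domain, were all higher in IR Input, by 0.10 to 0.30 on the log2 scale, and the call for Clk2 (adjusted p = 0.0456) was lost without any one of 4 of the 6 Input libraries (0.0748 to 0.12). Their ratio fell by 0.35 for Clk2, 0.52 for Clk3 and 0.53 for Clk4, and Clk1 did not pass (-0.21, adjusted p = 0.0877). The IR IP pools of Clk4 spread from 81.8 to 125 CPM, against 116 to 126 CPM in Ctrl IP, and its ratio to Input in Ctrl (0.17) was lost under library size alone (-0.012). The levels of the 4 CLK genes in the Input lay within 85.4 to 139.8 CPM.

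Of the helicases and export factors, Ddx5 and Thoc2 stood at the extremes. Thoc2 is the largest subunit of the THO complex, which couples transcription to mRNA export. It had 356, 334 and 336 CPM in Ctrl Input and 509, 491 and 505 CPM in IR Input. In the IP it had 1425, 1480.0 and 1474 CPM in Ctrl and 939, 939.8 and 1010.0 CPM in IR. It had the largest rise of the 40 genes in the Input (0.47 ± 0.0328, adjusted p = 4.15e-12) and fell in the IP (-0.59 ± 0.0403), a change of the ratio of -1.15 ± 0.0534 (adjusted p = 8e-12).

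Ddx5 is a DEAD-box helicase that acts in transcription and splicing. It had 428, 444 and 442 CPM in Ctrl Input and 432, 441 and 439 CPM in IR Input, which overlapped. With scaling over the Input libraries alone its log2 fold change was -0.08 (adjusted p = 0.0258), a call lost without any one of 4 of the 6 Input libraries. In the IP it had 135, 131 and 131 CPM in Ctrl and 137, 159 and 148 CPM in IR. Its IP stood at 0.319-fold of the Input in Ctrl and 0.351-fold in IR, and the change did not pass (0.16, adjusted p = 0.101), although it did as higher without any one of 5 of the 6 IP libraries (0.22 to 0.23). Ddx39b, a helicase of the export complex, was above its Input in both (0.86 and 0.55).

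**Figure D3:**
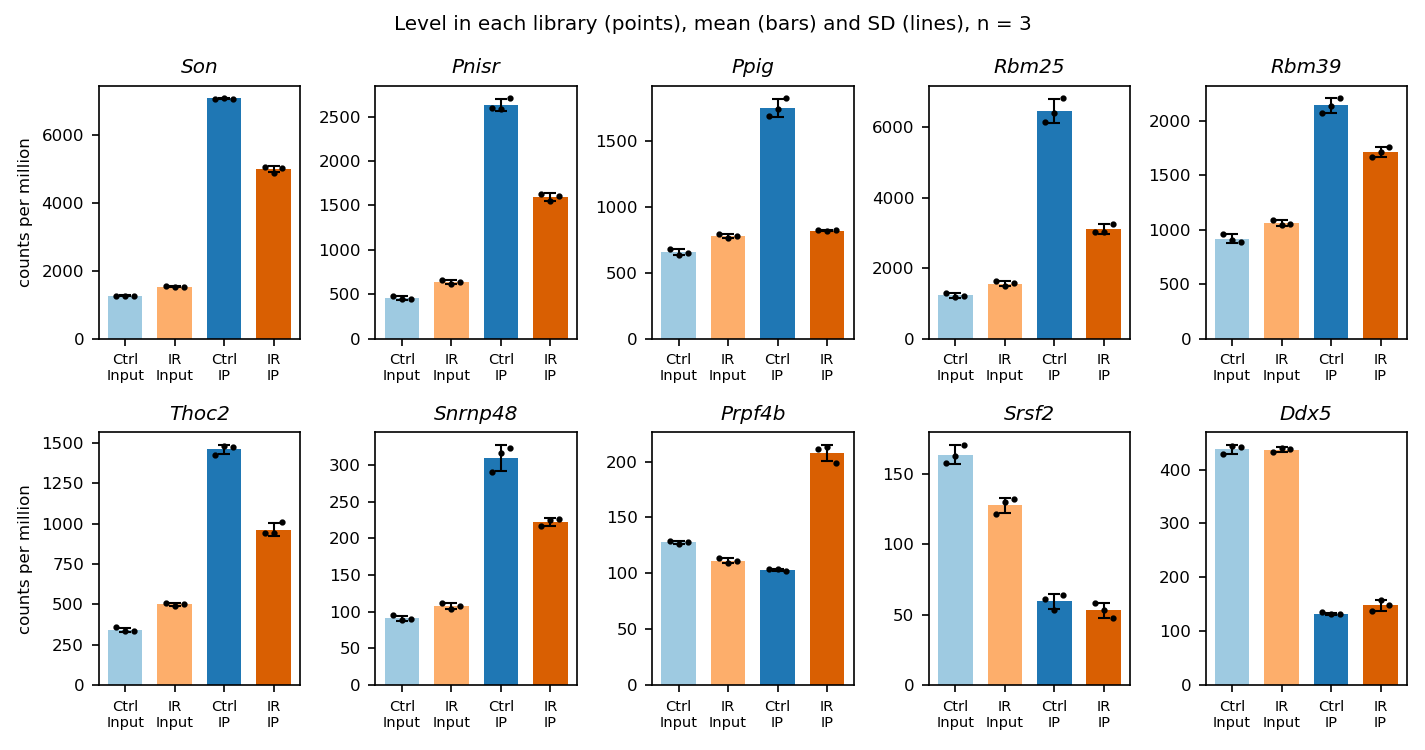
CPM of 10 genes in each library (points), with the mean (bars) and the SD (lines) over 3 pools of Ctrl Input, IR Input, Ctrl IP and IR IP; each panel has its own scale starting at 0. In Son, Pnisr, Ppig, Rbm25, Rbm39, Thoc2 and Snrnp48 the Ctrl IP bar is the tallest, in Prpf4b the IR IP bar is, at 208 CPM, and in Srsf2 and Ddx5 the Input bars are.

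The counts of some members can include reads of other genes. The SMARTer kit named in the labels keeps strand, but the strand setting of the counting is not given in the sources used here, so reads from an overlapping gene on the opposite strand cannot be told apart. Such genes cover 43.0% of the exon bases of Srsf4, 25.3% of Srsf2, 18.9% of Luc7l2, 15.2% of Clk3 and 6.3% of Acin1. Annotated pseudogenes of at least 95% identity over at least 300 bases matched 8 members, Ddx5, Rbm6, Srsf3, Srsf5, Srsf10, Tra2b, U2af1 and U2af2, and their counts are uncertain to that extent.

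Other splicing genes were counted in 4 lists that do not overlap with the 40. Among all genes tested, 34.1% were higher and 34.6% lower in the Ctrl IP than in the Input. The ratio fell with IR for 13.9% of all genes and rose for 6.28%. Among 31 tested genes of other SR-related and speckle proteins, 22 were higher and 8 lower in the Ctrl IP than in the Input, with Srek1, an SR-related regulator, highest (2.75 ± 0.0517) and Sap18 lowest (-1.39). The ratio fell with IR for 16 and rose for 4 of these, from -1.39 for Srek1 to 0.59 for Cdk12, a kinase of RNA polymerase II. Of 48 core spliceosome genes, 13 were higher and 26 lower in the Ctrl IP, from -2.60 for Snrpd3, an Sm protein, to 1.62 for U2surp. Their ratio fell for 11 and rose for 2, Prpf8 and Snrnp200, at the heart of the U5 snRNP.

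Of 25 hnRNP genes, 2 were higher and 21 lower in the Ctrl IP, with Hnrnpab lowest (-2.09), and the ratio fell with IR for 3 and rose for 2. Of 17 exon junction and export genes, 2 were higher and 13 lower, with Magoh lowest (-2.45), and the ratio fell for 7 and rose for 1. The median change of the ratio was -0.28 for the other SR-related and speckle genes, -0.27 for the core spliceosome, 0.073 for the hnRNPs and -0.31 for the exon junction and export genes, beside -0.43 for the 40 genes and -0.083 for all genes. In the Input, 9 of 31, 12 of 48, 3 of 25 and 1 of 17 were higher after IR, and 14, 22, 17 and 4 were lower, beside 21.0% higher and 23.9% lower among all genes. In the IP, 13 of 31, 13 of 48, 3 of 25 and 6 of 17 were lower after IR, and among them only 1 gene, Hnrnpa1, was higher, beside 9.85% lower and 6.12% higher among all genes. Scaled by library size alone, the 4 medians of the change of the ratio were 0.029, 0.045, 0.39 and 0.0055, beside -0.12 for the 40 genes, and the ratio then fell for 8 and rose for 11 of the other SR-related and speckle genes. Under that scaling the ratio rose for 2862 and fell for 877 of the 20720 genes tested.

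Features that were not measured in the libraries were read from the annotation. The 40 genes had more annotated transcripts than other coding genes, with a median of 10 against 5 over the 14433 others tested. At least 1 transcript annotated for nonsense-mediated decay was listed for 35 of the 40 (87.5%) against 26.9% of the others, and at least 1 retained-intron transcript for 36 against 55.8%. Their proteins held a median of 6.22 RS or SR dipeptides per 100 residues against 0.775, from 0.234 in Ddx39b to 23.5 in Srsf2. The list is made largely of SR and RS-domain genes, so a higher median was set by that choice. The median GC content of their mRNAs was 44.2% against 50.8%, and the median number of GGACT copies per kb of mRNA 0.751 against 1.07.

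Across the 40 genes, those with longer exons in total had higher ratios. Spearman's rho between merged exon length and the log2 ratio was 0.54 in Ctrl and 0.58 in IR, and -0.43 with the change of the ratio. Over the 13015 coding genes tested in Ctrl it was 0.21 and over the 13776 tested in IR 0.29, and with the change over 14473 coding genes it was 0.20, of the opposite sign to that of the 40. Coding length gave 0.54, 0.57 and -0.40 across the 40 genes, whereas 3′ UTR length gave -0.01 in Ctrl and GGACT copies per kb 0.098. The number of annotated transcripts gave 0.47 in Ctrl, 0.445 in IR and -0.454 with the change, the farthest from 0 of the features compared for the change. The number of annotated retained-intron transcripts gave 0.19 in Ctrl, and RS or SR dipeptides per 100 residues gave -0.26. These are correlations across genes, which share the same libraries and are not independent replicates, and the 40 were chosen on results of these libraries. Prpf4b, with an exon length of 8430 bases near that of Srsf11 (8446), was the only gene whose ratio was called higher with IR. Some longer genes departed from the trend too. Sf3b1 (11370 bases), Luc7l2 (12084 bases) and Rbm5 (15434 bases) had no ratio above the Input in Ctrl.

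**Figure D4:**
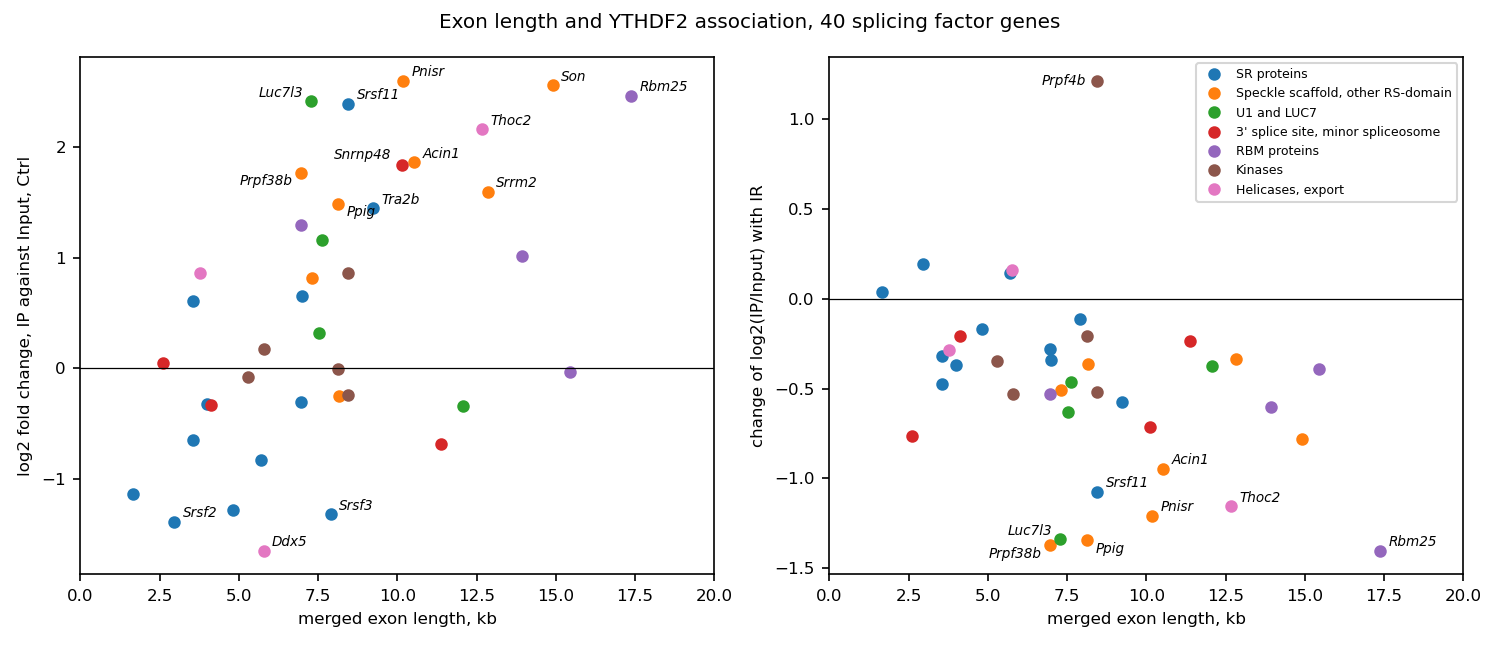
Merged exon length in kb (horizontal) against the log2 ratio of IP to Input in the Ctrl fit (left) and against the change of log2(IP/Input) with IR (right), 1 point per gene, coloured by role. Spearman's rho is 0.54 on the left and -0.43 on the right, with Rbm25, Son and Thoc2 at high length and high ratio, Rbm5 (-0.03) and Luc7l2 (-0.34) at high length without one, and Prpf4b alone at 1.21 on the right.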

How the data were processed

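RNA in the YTHDF2 precipitate and in the lysate was sequenced from 12 libraries, 3 of each of Ctrl Input, Ctrl IP, IR Input and IR IP. The authors trimmed reads with Trimmomatic 0.39 (per the submitters' processing notes, which also name HTSeq, DESeq2 and mm10), aligned them with HISAT in strand-specific mode and deposited the read counts per gene of HTSeq without normalization. The strand setting of the counting and the handling of duplicate reads are not given in the sources used here. Lines of reads off genes or on several genes stayed out of library sizes and tests. Unique reads off genes were 24.6 to 27.0% in the Input libraries and 41.8 to 54.1% in the IP libraries.

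From the deposited counts, genes that reached 10 counts in 3 or more libraries of a comparison were scaled by TMM over those libraries and tested with edgeR 4.0.16 (R 4.3.3) by the quasi-likelihood F test, with Benjamini-Hochberg adjustment over all genes tested and a threshold of 0.05. The SE of a log2 fold change was taken as its size divided by the square root of F. The change with IR was the interaction of fraction and condition. Levels are CPM scaled by TMM over all 12 libraries, at 27852948 to 42382532 reads on genes per library, so that 3 counts, the limit that a count of 0 allows, were 0.0737 to 0.112 CPM. This limit covers counting error only. Scripts were tested on simulated data that had the same spread in every group, so that test does not cover groups of unequal noise.

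The 40 members and the other lists were chosen with earlier results of these data known. All members are given by role, with levels in every library for the member with the largest rise or fall past the threshold in each comparison and for those with the highest and lowest level per kb. In each other list the largest rise and fall are named. Groups come from the labels. By the methods, part of each lysate was kept as Input and the rest used for the IP, but they do not state that the replicate numbers match. Ratios by pool match IP and Input by that number. All pairs of replicates differed by more than sampling noise. Relative to that of sampling, the variance between replicates was 3.69 to 7.50 in the 2 Input groups, 9.36 to 11.1 in Ctrl IP and 18.7 to 23.2 in IR IP.

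Alternatives were the size factors and the test of DESeq2 1.42.0, library size alone, other filters on low counts, nuclear protein-coding genes only, the replicate block, one fit of all libraries and each library left out. Identifiers were matched to GENCODE M21 (97.8% with version, 99.9% without), from which exon lengths, mRNA sequences, overlaps, pseudogene copies and RS or SR dipeptides of translated mRNAs were computed.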

Additional observations from a re-analysis of the deposited data

Results flagged for a closer look

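The ratio of IP to Input differed between Ctrl and IR for 31 of the 40 genes, by the interaction of fraction and condition (edgeR's quasi-likelihood test, adjusted p below the threshold). These are the calls of the report, and 1 of the 31 was toward a higher ratio in IR and 30 toward a lower one. Among all genes tested, the ratio was called lower for 13.9% and higher for 6.28%. Of the 30, 16 were called under all 19 alternatives. The 40 genes were chosen with earlier results of these libraries known. The log2 change was 1.21 for Prpf4b. Among the speckle scaffold and other RS-domain genes it was -0.78 for Son, -0.51 for Srrm1, -0.33 for Srrm2, -1.21 for Pnisr, -1.34 for Ppig, -0.95 for Acin1, -0.36 for Rsrc2 and -1.37 for Prpf38b. Among the SR genes and SR-like activators it was -0.48 for Srsf4, -0.37 for Srsf5, -0.32 for Srsf7, -0.34 for Srsf10, -1.07 for Srsf11 and -0.57 for Tra2b. Among the U1 and LUC7-like genes it was -0.46 for Snrnp70, -0.63 for Luc7l, -0.37 for Luc7l2 and -1.34 for Luc7l3. U2af1 changed by -0.76, Sf3b1 by -0.24 and Snrnp48 by -0.71. The RNA-binding motif genes changed by -0.39 for Rbm5, -0.60 for Rbm6, -1.40 for Rbm25 and -0.53 for Rbm39. The remaining calls were Clk2 at -0.35, Clk3 at -0.52, Clk4 at -0.53, Ddx39b at -0.29 and Thoc2 at -1.15. Groups of 3 libraries were too small to test single libraries for standing apart.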

How the results depend on the processing

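Prpf4b kept its higher ratio after IR under each of the 19 alternatives, and Son, Pnisr, Ppig, Rbm25, Luc7l3 and Thoc2 their lower ratio. Of 3000 gene values under alternatives, 2841 kept direction and side of the threshold, 93 lost the call, 61 gained one and 5 reversed; 37 of these 159 changes came with library size alone. The cause of these changes was not tested.

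With library size alone, the median was 0.28 for IP against Input in Ctrl (0.47 in the report), 0.27 in IR (0.12), -0.12 for the change with IR (-0.43) and -0.11 for IR against Ctrl in the IP (-0.32). The change was then higher for 5 and lower for 16 genes, and the IP higher for 5. Reversed values were Clk4 in Ctrl (-0.012), Sf3b1 (0.074) and Ddx39b (0.026) in the change and Sf3b1 in the IP (0.19). Without the filter on low counts the medians were 0.35 in Ctrl and -0.017 in IR, where Ppig stood at -0.012. With 10 counts in every library the medians were 0.24 in IR, -0.32 for the change and -0.26 in the IP, with 3 genes higher in each of the last 2. With protein-coding nuclear genes only they were 0.56 in Ctrl, 0.25 in IR and -0.35 for the change, with 2 higher. The size factors and the test of DESeq2 each gave a median of 0.17 in IR and 2 genes higher in the change. With all 12 libraries in one fit the medians were 0.39 in Ctrl, 0.066 in IR and 0.17 in the Input, where 6 genes were lower, and 3 were higher in the IP.

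Leaving out each library in turn, the medians ran from 0.44 to 0.53 in Ctrl, 0.091 to 0.21 in IR, -0.45 to -0.34 for the change, 0.069 to 0.12 in the Input and -0.36 to -0.29 in the IP. Genes higher ranged from 21 to 22, 19 to 21, 1 to 4, 19 to 22 and 1 to 2 in that order, and genes lower from 14 to 14, 17 to 19, 24 to 32, 9 to 11 and 22 to 26. In the change, the call of Sf3b1 was lost without any one of Ctrl IP replicates 1, 2 and 3 and IR IP replicate 3, and that of Clk2 without Ctrl IP replicates 1 and 3 and IR IP replicate 3. That of Srsf7 was lost without any one of 6 libraries. In the IP, the lower calls of Clk3, Srsf5 and Srsf6 were lost without 5, 3 and 2 of the 6 libraries.

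Deviations of IP and Input libraries of the same number from their group means correlated by -0.0225 to 0.0398, so these data do not show that the numbers pair them. With that number within a condition as a replicate block, 22 genes were higher and 14 lower in Ctrl, 20 and 19 in IR, and 1 and 29 in the change, and Srsf7 was the call that differed (adjusted p = 0.0211 without and 0.0522 with the block). With the number shared by Ctrl and IR libraries as a block, 22 were higher and 13 lower in the Input and 1 and 26 in the IP. Srrm1 (0.06), Rbm6 (0.09) and Ddx39b (-0.07) were the calls gained in the Input, and U2af2 in the IP. Deviations of same-numbered Ctrl and IR libraries correlated by 0.00539 to 0.0503 in the Input and -0.0208 to 0.00735 in the IP.

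With 3 technical replicates a group and no control antibody library, the spread covers pools only, and the ratio of IP to Input is relative to the other genes of each library.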
